A study of Mus musculus with 6 samples.

Results

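The genes described here are 50 genes of DNA replication and cell division, measured by RNA sequencing in C2C12 myotubes. Members were the rows of the deposited gene count table whose gene name was on a fixed list, and all 50 were found among the 46983 genes of the table. They were divided by role into 20 genes of S phase, when DNA is copied, and 30 genes of mitosis. All 50 passed the filter on low counts that left 14450 genes to test. C2C12 is a mouse myoblast line, labelled wild type, whose cells stop dividing and fuse into multinucleated myotubes when serum is lowered. The cells were differentiated within 7 days in medium with horse serum. Myotubes were then exposed for 24 h to corticosterone, the glucocorticoid hormone that predominates in rodents, at 1e-07 M, or to ethanol, its vehicle, at 1 µL per mL. There were 3 libraries per treatment, which the submitters describe as independent biological replicates. They are called CORT 1, CORT 2 and CORT 3, and VEH 1, VEH 2 and VEH 3, after their labels.

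As background, entry into S phase is driven by cyclin E with its kinase and by the E2F transcription factors, which switch on the genes of nucleotide supply, of the MCM helicase and of the polymerases. Genes of mitosis are switched on later in the cycle, under cyclin A and cyclin B with the kinase Cdk1, and many of their promoters carry a CHR element together with CCAAT boxes. In cells that have left the cycle, a repressor complex called DREAM sits on both kinds of promoter. Nuclei of a fused myotube are held out of the cycle, and unfused myoblasts in the same dish may still divide.

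Promoter sequences are shown first because the classes differ in the words they hold. Further on, the classes also differ in how they vary between libraries, and a link between these differences was not tested. Of the 50 members, 42 matched an entry in the RefSeq promoter table for GRCm38.p6, each running from 250 bases before to 50 bases after the 5′-most listed start. Ccne2, Mcm4, Gins2, Ccna2, Cdc25c, Aurkb, Kif20a and Tpx2 were not matched. Each window of 300 bases was searched on both strands for TTCCCGC or TTGGCGC (E2F words), TTTGAA (the CHR core) and CCAAT. An E2F word can share bases with CCAAT, as in TTGGCGC preceded by A, so these counts are not independent. An E2F word was present in 10 of 17 S phase promoters (58.8%) and 4 of 25 mitotic promoters (16.0%), against 12.3% of 10091 promoters of genes tested and 6.96% of all 27025 promoters. The CHR core was present in 1 of 17 S phase promoters (5.88%) and 18 of 25 mitotic promoters (72.0%), against 11.7% of promoters of genes tested and 18.2% of all promoters. A CCAAT box was present in 11 of 17 S phase promoters (64.7%) and 20 of 25 mitotic promoters (80.0%), against 38.7% of promoters of genes tested and 38.0% of all promoters. The CHR core and CCAAT occurred together in 16 of 25 mitotic promoters (64.0%), against 4.94% of promoters of genes tested. A match is a description of the letters and does not show that a factor was bound.

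The 150 bases just before the start are printed 5′ to 3′ on the gene's own strand for 3 S phase and 3 mitotic members, with the searched words in capitals. They are the named members of each class with the smallest p whose stretch held the word typical of the class and overlapped no GENCODE exon, and they were chosen after these sequences were seen. Pola1 (GRCm38 chrX:93632156-93632305, minus strand), Mcm6 (chr1:128359706-128359855, minus strand) and Rrm1 (chr7:102441545-102441694, plus strand) hold E2F words and no CHR core. Top2a (chr11:99024190-99024339, minus strand), Kif11 (chr19:37376232-37376381, plus strand) and Mki67 (chr7:135716380-135716529, minus strand) hold the CHR core, and Mki67 also holds an E2F word.
Pola1: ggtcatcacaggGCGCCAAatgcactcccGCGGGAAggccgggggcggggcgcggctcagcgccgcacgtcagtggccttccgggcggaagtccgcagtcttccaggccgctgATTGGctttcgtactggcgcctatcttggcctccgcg
Mcm6: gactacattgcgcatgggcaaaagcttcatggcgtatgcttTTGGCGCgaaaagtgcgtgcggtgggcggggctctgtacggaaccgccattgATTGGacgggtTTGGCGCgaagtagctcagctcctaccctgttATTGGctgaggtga
Rrm1: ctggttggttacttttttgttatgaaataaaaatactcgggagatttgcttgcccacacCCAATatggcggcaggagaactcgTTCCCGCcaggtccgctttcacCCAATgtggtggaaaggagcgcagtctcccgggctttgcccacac
Top2a: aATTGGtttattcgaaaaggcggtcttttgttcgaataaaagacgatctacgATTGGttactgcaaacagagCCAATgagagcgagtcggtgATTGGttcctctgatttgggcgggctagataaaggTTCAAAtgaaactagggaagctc
Kif11: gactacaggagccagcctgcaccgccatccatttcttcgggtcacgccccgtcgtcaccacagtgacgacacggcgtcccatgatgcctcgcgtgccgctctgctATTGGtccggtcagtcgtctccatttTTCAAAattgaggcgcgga
Mki67: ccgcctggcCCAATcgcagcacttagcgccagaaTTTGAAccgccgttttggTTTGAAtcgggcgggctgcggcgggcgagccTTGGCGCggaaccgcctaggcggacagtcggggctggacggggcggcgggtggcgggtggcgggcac

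Total counts ran from 23877583 to 29928653 per library. Levels are given in CPM, the read count of a gene scaled to a common library size with TMM factors. The members together took 0.110 to 0.146% of all counts. In bulk RNA, fewer dividing cells and less of these transcripts per cell cannot be told apart. Fkbp5, a glucocorticoid-induced co-chaperone of the receptor, went against the labels in CORT 2 and VEH 2. It stood at 151, 36.9 and 135 CPM in CORT 1, CORT 2 and CORT 3, and at 36.9, 177 and 35.4 CPM in VEH 1, VEH 2 and VEH 3. Tsc22d3 and Per1, also used to check the labels, divided the libraries in the same way. In the same order of libraries, Tsc22d3 stood at 218, 65.1 and 232 CPM against 67.0, 264 and 76.2 CPM. Per1 stood at 85.2, 36.4 and 88.9 CPM against 31.6, 76.0 and 35.1 CPM. Over 14214 tested genes that are on none of the lists used here, the libraries fell into 3 near pairs, each library having the other as its nearest: CORT 1 with VEH 3, CORT 2 with CORT 3, and VEH 1 with VEH 2. The root mean square log2 distance within these pairs was 0.36, 0.40 and 0.36, and the next nearest library was 0.45 to 0.48 away. In every near pair, Fkbp5 was thus high in 1 library and low in its neighbour. The results below are given by label with all 6 libraries, without CORT 2 and VEH 2, and within near pairs.

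By label, mitotic genes were lower in the libraries labelled corticosterone, and no gene passed the test over all genes. Log2 differences were negative for 28 of the 30 mitotic members, and their median was -0.31. Over all 14450 genes tested, 49.2% of differences were negative and the median was 0.004. Called genes numbered 0 among the members and 0 (0%) among all genes by edgeR's quasi-likelihood test at a Benjamini-Hochberg adjusted p of 0.05, and the smallest adjusted p of a mitotic member was 0.364. At an unadjusted p under 0.05, 15 of 30 mitotic members were lower and 0 higher, where 6.26% of all genes were lower and 5.55% higher. Without VEH 1 the lower members numbered 8, where 2.57% of all genes were lower. DESeq2 called 143 genes over the table, of which 2 were mitotic members, both lower, where it called 0.59% of genes lower. The CPM of the labels did not overlap for 14 of 30 mitotic members (46.7%), all lower in the libraries labelled corticosterone, where 8.19% of all genes tested were lower without overlap. Without CORT 2 alone, 23 of 30 did not overlap, where 13.6% of all genes were lower without overlap. Members and classes were chosen with such results known, so these counts are a description.

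Among the cyclins and their kinase, Ccna2, which encodes cyclin A2 and acts in S phase as well as in mitosis (ENSMUSG00000027715, GRCm38, chromosome 3, 36564865 to 36572150), had 19.9, 22.3 and 21.2 CPM in CORT 1, CORT 2 and CORT 3. In VEH 1, VEH 2 and VEH 3 it had 31.2, 28.1 and 28.5 CPM. All libraries labelled corticosterone thus lay below all those labelled vehicle, CORT 2 and VEH 2 included. The log2 difference was -0.47 ± 0.09 (SE, n = 3 each, edgeR adjusted p = 0.364, DESeq2 adjusted p = 0.0148). Of the exon bases of Ccna2, 12.5% also belong to Exosc9 on the other strand, and how reads there were counted is not given. Ccnb2, which encodes cyclin B2, stood at 10.2, 12.9 and 10.2 CPM against 17.8, 14.1 and 15.2 CPM, without overlap (log2 difference -0.50 ± 0.14, edgeR adjusted p = 0.364). Ccnb1, for cyclin B1, stood at 14.8, 21.2 and 17.9 CPM against 24.7, 23.3 and 21.8 CPM, also without overlap, with CORT 2 nearest to the vehicle libraries. Cdk1, the kinase that cyclins A and B switch on, stood at 19.9, 21.0 and 23.6 CPM against 34.5, 35.2 and 23.1 CPM. Its difference came from VEH 1 and VEH 2, since VEH 3 lay among the libraries labelled corticosterone. Cdc25c, for a phosphatase that activates Cdk1, had the lowest level per length of the 50 members, 0.67 CPM per kb of exon on average, and stood at 2.55 to 4.53 CPM. Cdc25b, for a related phosphatase, did not follow the others, at 42.6, 42.7 and 38.3 CPM against 39.7, 31.0 and 51.5 CPM (log2 difference 0.02 ± 0.17, edgeR adjusted p = 0.972). Both ends of its range were libraries labelled vehicle.

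Top2a, for the topoisomerase that untangles sister chromosomes (ENSMUSG00000020914, chromosome 11, 98992943 to 99024189), was nearly constant within each label. It stood at 57.7, 58.3 and 56.7 CPM in CORT 1, CORT 2 and CORT 3 and at 74.7, 70.9 and 68.8 CPM in VEH 1, VEH 2 and VEH 3. The log2 difference was -0.31 ± 0.07 (SE, n = 3 each, edgeR adjusted p = 0.364). The DESeq2 adjusted p was 0.0497 with its default filtering and 0.0546 with filtering tuned at 0.05, so that call lies on the threshold. Mki67, which encodes the proliferation marker Ki-67, overlapped between the labels, at 37.2, 46.1 and 34.1 CPM against 48.0, 43.9 and 51.8 CPM (log2 difference -0.29 ± 0.12, edgeR adjusted p = 0.423). Here CORT 2 lay above VEH 2.

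Kinesins, the motors of the spindle, lay lower in the libraries labelled corticosterone to different degrees. Kif11, the motor that pushes spindle poles apart (ENSMUSG00000012443, chromosome 19, 37376403 to 37421859), stood at 13.6, 14.9 and 14.1 CPM against 22.1, 18.9 and 18.1 CPM, without overlap (log2 difference -0.47 ± 0.11, edgeR adjusted p = 0.364, DESeq2 adjusted p = 0.0518). Kif20a, a motor of cytokinesis, stood at 16.2, 20.2 and 16.1 CPM against 25.4, 23.6 and 23.3 CPM, without overlap (-0.46 ± 0.12, edgeR adjusted p = 0.364). It shares 29.3% of its exon bases with Cdc23 on the other strand, a gene with a higher mean of 56.5 CPM. Kif23, the motor of the midbody, also did not overlap, at 12.6, 16.0 and 14.5 CPM against 18.5, 16.1 and 17.3 CPM, although CORT 2 and VEH 2 stood almost level. Kif2c, a motor that takes microtubules apart, overlapped, at 6.915, 10.995 and 7.818 CPM against 9.928 and 10.15 CPM in VEH 2 and VEH 3, and was highest in VEH 1. Kif4, a chromosome-bound motor, overlapped as well, at 6.81, 9.97 and 8.56 CPM against 10.0, 8.82 and 10.4 CPM, and shares 15.1% of its exon bases with Pdzd11 on the other strand. In both, CORT 2 stood above VEH 2.

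Among the genes of the spindle checkpoint, which holds chromosome separation until all chromosomes are attached, Bub1 and the kinase gene Ttk did not overlap between the labels. Bub1 stood at 8.35, 8.77 and 9.51 CPM against 11.6, 10.9 and 10.4 CPM, and Ttk at 4.96, 5.31 and 5.38 CPM against 6.96, 6.38 and 7.47 CPM. Bub1b, for another checkpoint protein, overlapped, at 13.41, 17.98 and 14.54 CPM against 19.19, 16.93 and 16.99 CPM, and so did Mad2l1, at 14.5, 14.9 and 16.5 CPM against 23.1, 20.7 and 16.1 CPM. Bub1b overlapped through CORT 2 and Mad2l1 through VEH 3. Cdc20, which activates the ligase that the checkpoint restrains, stood at 17.2, 24.1 and 20.3 CPM against 23.0, 20.3 and 23.7 CPM, with its highest value in CORT 2. Of the mitotic kinases, Plk1 stood at 8.35, 9.25 and 8.41 CPM against 11.2, 10.7 and 10.2 CPM and Aurkb at 8.07, 8.15 and 8.29 CPM against 10.6, 9.69 and 8.60 CPM, both without overlap. Aurka overlapped, at 6.98, 10.8 and 8.41 CPM against 9.97, 9.03 and 10.1 CPM, and was highest in CORT 2. Birc5, for survivin, the partner of Aurora B, stood at 8.63, 8.84 and 11.7 CPM against 14.2, 13.8 and 12.7 CPM, without overlap.

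Genes of the centromere split in the same way. Cenpe, the kinetochore motor, did not overlap, at 14.4, 16.4 and 11.7 CPM against 19.7, 17.3 and 21.2 CPM. Cenpf, a large kinetochore protein, stood at 15.3, 26.7 and 15.6 CPM against 24.6, 22.1 and 26.3 CPM, so that CORT 2 had the highest value of all and CORT 1 and CORT 3 the lowest. Cenpa, the histone of the centromere, had CORT 2 at 14.8 CPM, above VEH 2 at 14.6 CPM, with CORT 1 and CORT 3 at 9.05 and 11.2 CPM. Of the genes of spindle assembly and cytokinesis, Anln, for the actin-binding anillin, did not overlap, at 40.9, 49.1 and 38.1 CPM against 61.6, 51.8 and 52.3 CPM (log2 difference -0.37 ± 0.12, edgeR adjusted p = 0.364). Tpx2, a spindle assembly factor, stood at 25.7, 32.7 and 30.9 CPM against 37.0, 30.7 and 36.8 CPM (-0.23 ± 0.12, edgeR adjusted p = 0.486). Nusap1, a microtubule binder of the spindle, and Ect2, which starts the cleavage furrow, overlapped, at 11.1 to 17.7 CPM and 16.0 to 21.5 CPM, each lowest in CORT 1 and highest in VEH 1. Prc1, which bundles the microtubules of the central spindle, was the other mitotic member whose difference was not negative. It stood at 27.2, 29.1 and 32.2 CPM against 27.4, 29.8 and 27.7 CPM, and 11.1% of its exon bases are shared with Rccd1 on the other strand.

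**Figure D1:**
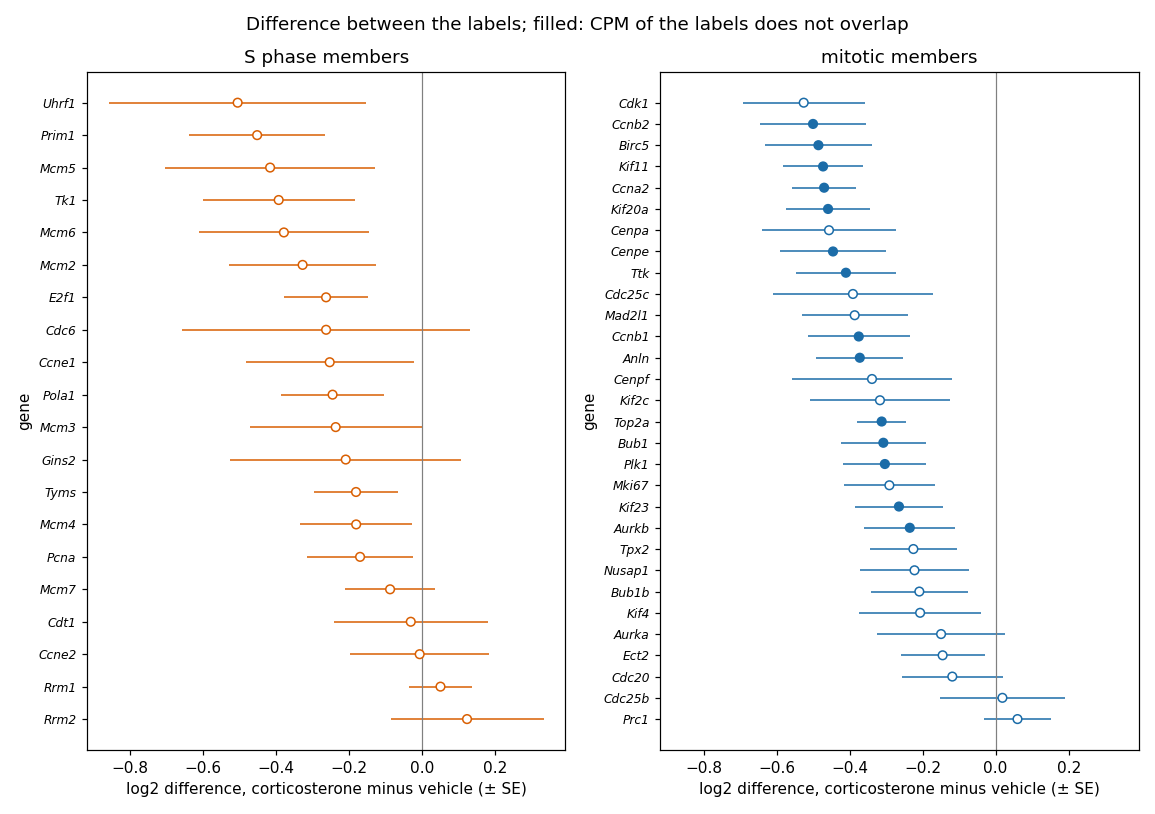
Log2 difference in expression between the labels, corticosterone minus vehicle (x axis, edgeR estimate ± SE, 3 libraries per label), for each S phase member (left) and mitotic member (right). Filled points mark genes whose CPM did not overlap between the labels, which are 14 of the 30 mitotic members and 0 of the 20 S phase members, and no gene passed the adjusted threshold in edgeR (DESeq2 called 2, Ccna2 and Top2a).

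By label, S phase genes also had mostly negative differences, but their libraries overlapped in every case with all 6 libraries. Log2 differences were negative for 18 of the 20 members, where 49.2% of all genes were, and their median was -0.24. None passed the edgeR test (0 of 20, 0% of all genes, smallest adjusted p = 0.408) and DESeq2 called 0. At an unadjusted p under 0.05 there was 1 lower member, Prim1, and 0 higher, where 6.26% of all genes were lower and 5.55% higher. CPM overlapped between the labels for 20 of 20, where 8.19% of all genes were lower and 8.41% higher without overlap. That overlap rested largely on VEH 3, without which 14 of 20 were lower without overlap and 6 lower at an unadjusted p under 0.05, where 20.1% and 10.3% of all genes were. Without CORT 1, 2 of 20 were lower without overlap, and without CORT 3, 3 of 20, where 16.9% and 11.5% of all genes were. Without CORT 2 and VEH 2, 10 of 20 differences were negative and the median was -0.01, so the direction by label rests on those libraries. With 1 library left out at a time, the median ran from -0.40 without VEH 3 to -0.10 without CORT 2.

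The MCM genes encode the 6 subunits of the replicative helicase and varied alike from library to library. Mcm6 (ENSMUSG00000026355, chromosome 1, 128331590 to 128359664) stood at 45.9, 23.5 and 37.2 CPM in CORT 1, CORT 2 and CORT 3 and at 49.5, 51.0 and 38.2 CPM in VEH 1, VEH 2 and VEH 3. CORT 2 stood far below the rest, and VEH 3 lay level with CORT 3 (log2 difference -0.38 ± 0.23, edgeR adjusted p = 0.54). Mcm5 stood at 19.2, 8.97 and 16.8 CPM against 23.4, 21.7 and 14.9 CPM, and Mcm3 at 27.4, 16.2 and 26.5 CPM against 30.4, 31.7 and 20.5 CPM. Mcm2 stood at 33.1, 20.6 and 27.1 CPM against 39.0, 36.0 and 26.4 CPM (-0.33 ± 0.20, edgeR adjusted p = 0.54). Mcm4 ranged from 25.4 to 39.3 CPM, and Mcm7 from 39.9 to 55.2 CPM (-0.09 ± 0.12, edgeR adjusted p = 0.783). CORT 2 was the lowest library for each of the 6, and VEH 3 was next for all but Mcm6.

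Of the genes that load the helicase, Cdc6 had the widest range of all members, 3.40-fold, at 5.52, 1.99 and 4.91 CPM against 4.42, 6.76 and 3.67 CPM. Cdt1, its partner in loading, stood at 9.64, 6.27 and 10.0 CPM against 10.1, 9.00 and 7.39 CPM. Gins2, a subunit of the active helicase, stood at 2.38 to 5.24 CPM, but 67.3% of its exon bases are shared with Gse1 on the other strand, so its counts are uncertain. Uhrf1, which carries DNA methylation through replication, ranged 3.14-fold, at 20.0, 7.36 and 15.0 CPM against 23.1, 23.0 and 13.9 CPM. For Cdc6, Cdt1 and Uhrf1 the lowest value was again in CORT 2, followed by VEH 3.

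Of the polymerase genes, Prim1, for the DNA primase subunit, stood at 9.67, 7.23 and 9.15 CPM against 12.6, 13.7 and 9.27 CPM (log2 difference -0.45 ± 0.19, edgeR adjusted p = 0.408). Pola1, for DNA polymerase alpha, stood at 13.48, 12.57 and 14.02 CPM against 18.2, 16.3 and 13.0 CPM (-0.25 ± 0.14, edgeR adjusted p = 0.51). Pcna, the sliding clamp, stood at 61.6, 52.2 and 70.4 CPM against 79.0, 70.5 and 57.7 CPM (-0.17 ± 0.15, edgeR adjusted p = 0.648). In each of the 3, VEH 1 and VEH 2 were the highest libraries. E2f1, for the transcription factor itself, stood at 22.3, 22.5 and 24.3 CPM against 29.8, 29.7 and 23.4 CPM (-0.26 ± 0.11, edgeR adjusted p = 0.424), a narrow range in which VEH 1 and VEH 2 alone stood apart. Ccne1, for cyclin E1, stood at 7.02, 5.41 and 7.31 CPM against 8.29, 9.69 and 5.51 CPM, and Ccne2, for cyclin E2, at 10.44, 7.604 and 10.41 CPM against 10.98, 10.03 and 7.557 CPM. In both, CORT 2 and VEH 3 were the lowest libraries, and 17.4% of the exon bases of Ccne2 are shared with Ints8.

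Genes of nucleotide supply differed among themselves in how they varied. Rrm2, the regulated subunit of ribonucleotide reductase, had the highest mean per kilobase of exon, 43.9 CPM per kb, ahead of Pcna at 27.2 CPM per kb and Rrm1, the large subunit, at 12.3 CPM per kb. Rrm2 stood at 148, 89.1 and 144 CPM against 106, 141 and 102 CPM (log2 difference 0.12 ± 0.21, edgeR adjusted p = 0.829). Its 3 highest libraries, CORT 1, CORT 3 and VEH 2, are those with the higher level of Fkbp5. Rrm1 hardly varied, at 135, 140 and 137 CPM against 137, 143 and 119 CPM (0.05 ± 0.09, edgeR adjusted p = 0.831). Tk1, for thymidine kinase, stood at 9.85, 8.56 and 12.7 CPM against 14.6, 15.9 and 10.3 CPM (-0.39 ± 0.21, edgeR adjusted p = 0.484), and Tyms, for thymidylate synthase, ranged from 14.1 to 18.6 CPM.

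**Figure D2:**
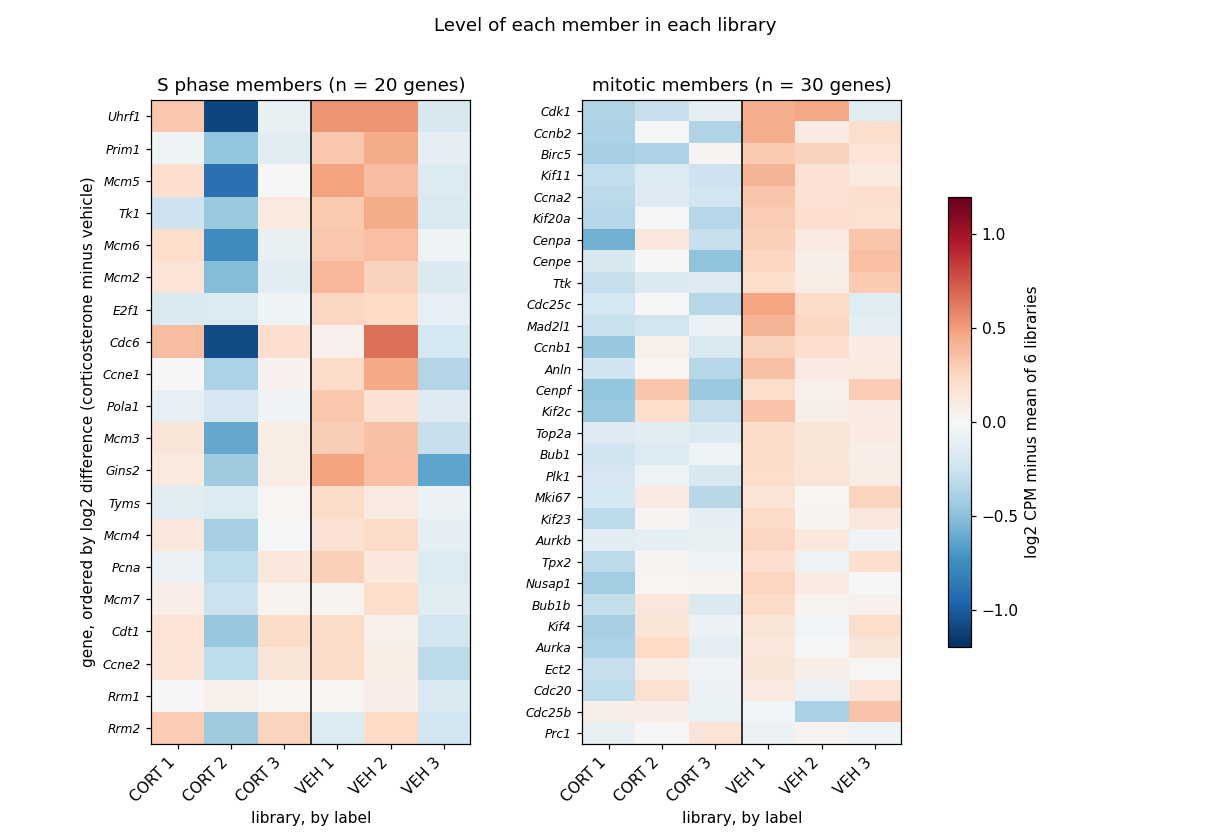
Level of each member in each library, as log2 CPM minus the gene's mean over the 6 libraries (colour scale), with S phase members on the left and mitotic members on the right, ordered from the most negative log2 difference between the labels at the top. CORT 2 is the lowest library (blue) of 16 of 20 S phase genes, and CORT 1 is the lowest library of 23 of 30 mitotic genes.

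The classes thus did not follow each other across the libraries. CORT 2 was the lowest library for 16 of 20 S phase members and for 0 of 30 mitotic members, whereas CORT 1 was the lowest for 23 of 30 mitotic members and for 1 S phase member. Median deviations of the S phase members from the mean of the 6 libraries, on the log2 scale, were 0.13, -0.43 and 0.04 in CORT 1, CORT 2 and CORT 3, and 0.27, 0.26 and -0.18 in VEH 1, VEH 2 and VEH 3. Those of the mitotic members were -0.30, 0.02 and -0.16, and 0.24, 0.10 and 0.13. VEH 1 was high for both classes. VEH 3 was above the mean for mitotic genes and below it for S phase genes, and CORT 1 was the reverse. Pearson's r between the class medians was 0.055 over the 6 libraries, which enter both medians, so it is a description. Over the same 6 libraries, 20 of 20 S phase members and 29 of 30 mitotic members correlated more closely with the median of the rest of their own class than with that of the other class. The median r was 0.89 with the own and 0.10 with the other class for S phase members, and 0.85 and 0.07 for mitotic members. The exception was Prc1. Cdk1, Mad2l1 and Aurkb followed both classes, with r of 0.69, 0.71 and 0.76 with the mitotic and 0.68, 0.68 and 0.65 with the S phase median. E2f1 also followed both, with r of 0.73 with the S phase and 0.65 with the mitotic median. Rrm1, Prc1 and Cdc25b did not follow their own class (r of 0.28, -0.23 and -0.05). These genes were picked out after their values were seen.

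**Figure D3:**
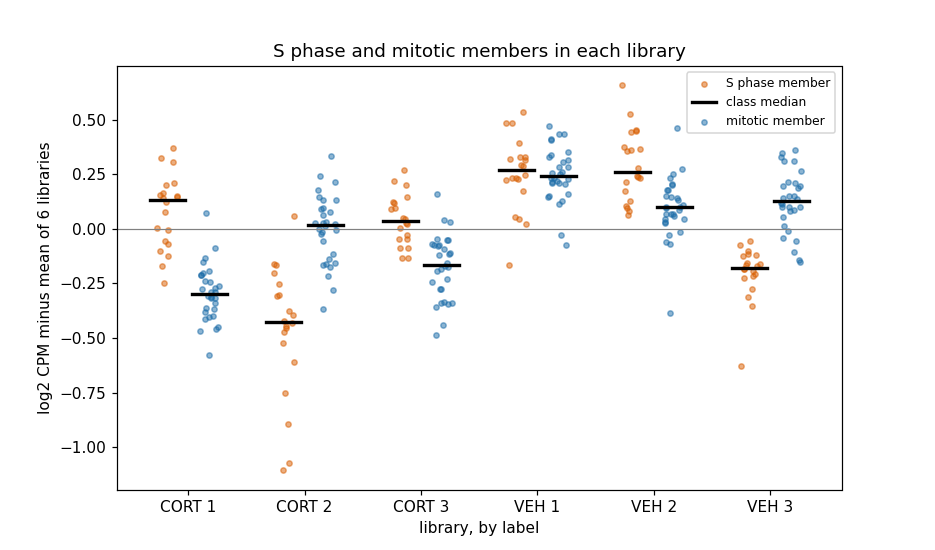
Deviation of each member from its own mean over the 6 libraries (y axis, log2 CPM), by library (x axis), with S phase members in orange, mitotic members in blue and black bars at the class medians. The S phase median is lowest in CORT 2 (-0.43) and the mitotic median is lowest in CORT 1 (-0.30), while both are highest in VEH 1 (0.27 and 0.24).

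Within each near pair, most mitotic members were lower and S phase members mostly higher or level in the library with the higher Fkbp5. That order is measured and is not a label, so single libraries are set side by side here without means over libraries and without a test. CORT 1 was compared with VEH 3, the near pair that holds both labels, and 30 of 30 mitotic members were lower in CORT 1, with a median log2 difference of -0.45, where 50.5% of all genes were lower. In the same pair, 17 of 20 S phase members were higher in CORT 1, with a median of 0.30. CORT 3 was compared with CORT 2, and 22 of 30 mitotic members were lower in CORT 3 (median -0.15, against 50.7% of all genes lower), while 19 of 20 S phase members were higher (median 0.44). VEH 2 was compared with VEH 1, and 28 of 30 mitotic members were lower in VEH 2 (median -0.16, against 49.6% of all genes lower), while S phase members were divided, 10 lower and 10 higher (median 0.02). The medians over all genes were -0.003, -0.004 and 0.002 in the 3 pairs.

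In all 3 near pairs, 22 of 30 mitotic members (73.3%) were lower in the library with the higher level of Fkbp5, where 20.5% of all genes tested were. These 22 were Ccna2, Ccnb1, Ccnb2, Cdc20, Cdc25b, Cdc25c, Plk1, Aurka, Bub1b, Kif11, Kif20a, Kif23, Kif2c, Kif4, Cenpe, Cenpf, Cenpa, Top2a, Mki67, Tpx2, Anln and Ect2. No S phase member was lower in all 3, and 8 of 20 were higher in all 3, where 20% of all genes were. Those 8 were Ccne1, Mcm3, Mcm4, Mcm6, Mcm7, Rrm2, Cdc6 and Prim1. Examples picked after their values were seen show the size of the steps. Cenpf had log2 differences of -0.78 between CORT 1 and VEH 3, -0.77 between CORT 3 and CORT 2, and -0.15 between VEH 2 and VEH 1. Ccnb2 had steps of -0.58, -0.34 and -0.33. In the same order of pairs, Cdc6 had steps of 0.58, 1.27 and 0.60, and Rrm2 of 0.53, 0.69 and 0.41. Birc5 differed in sign between pairs, at -0.55, 0.40 and -0.04, and Cdk1 likewise at -0.22, 0.17 and 0.03. The counts of 22 and 0 were the same under each of the 4 library scalings.

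**Figure D4:**
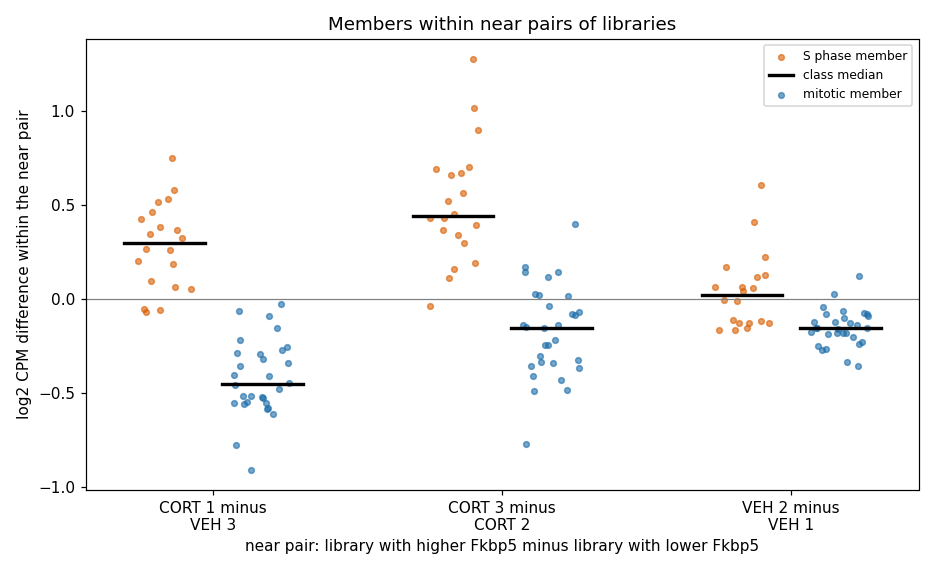
Log2 CPM difference of each member between the libraries of each near pair (y axis), the library with the higher Fkbp5 minus the one with the lower, with S phase members in orange, mitotic members in blue and black bars at the class medians. Mitotic medians lie at -0.45, -0.15 and -0.16 and S phase medians at 0.30, 0.44 and 0.02, from left to right.

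The difference between the labels was then estimated with near pair as a term in the edgeR model, in which it rests on CORT 1 and VEH 3, because the other pairs hold 1 label each. No gene passed (0 of 14450, 0%). The median of the mitotic members was -0.46 with 30 of 30 negative, against 50.5% of all genes. The median of the S phase members turned to 0.30, with 3 of 20 negative. These values restate the difference between CORT 1 and VEH 3 given above. The spread behind the test comes from the other pairs, which hold no contrast of labels, so the fit adds no independent check. The opposite direction of the classes was not tested, since members of a class are not replicates.

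Without CORT 2 and VEH 2, the libraries in which Fkbp5 goes against the labels, mitotic members again lay lower by label. The log2 difference was below 0 for 29 of 30, at a median of -0.41, where 50.3% of all genes lay below 0. Their CPM did not overlap for 25 of 30, where 18.3% of all genes were lower without overlap with 2 libraries per label. At an unadjusted p under 0.05, 14 were lower, where 3.25% of all genes were, and no member passed the adjusted threshold, which 3 genes (0.0208%) did. Mitotic members with the larger differences included Ccnb2 at -0.70, Kif20a at -0.59 and Kif11 and Ccna2 at -0.54 each (adjusted p from 0.644 to 0.724). Rrm2 stood 0.48 higher (adjusted p = 0.543). Those libraries were set aside on the values of Fkbp5 and not on those of the members.

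Other genes of replication and mitosis were taken from lists that hold no member. Of 60 other mitotic genes tested, 0 passed the adjusted threshold in edgeR (0% of all genes). DESeq2 called 1, Iqgap3, which was lower (adjusted p = 0.00967), where it called 0.59% of genes lower. Differences by label were negative for 52 (86.7%, median -0.22), where 49.2% of all genes had a negative one. At an unadjusted edgeR p under 0.05, 18 were lower and 1 higher, where 6.26% and 5.55% of all genes were. Without overlap, 21 (35%) were lower and 2 higher, where 8.19% and 8.41% of all genes were. The smallest p were those of Iqgap3, at 7.72, 6.58 and 5.93 CPM against 10.7, 12.1 and 10.9 CPM, and of the kinesin gene Kif22, at 8.21, 9.04 and 8.29 CPM against 12.23, 11.20 and 11.98 CPM, both without overlap (edgeR adjusted p = 0.364). Smc4, for a condensin subunit and the gene with the highest CPM of the list, differed by -0.05 ± 0.07 (adjusted p = 0.776). In all 3 near pairs, 23 of 60 (38.3%) were lower in the library with the higher Fkbp5 and 3 were higher, where 20.5% and 20% of all genes were. By pair, 48 of 60 were lower in CORT 1 than in VEH 3 (median -0.33), where 50.5% of all genes were. In VEH 2 against VEH 1, 41 were lower (median -0.10), where 49.6% of all genes were. In CORT 3 against CORT 2, 33 were lower (median -0.02), where 50.7% of all genes were. The lower level of the mitotic members in CORT 3 was thus hardly seen over this list. Of 46 other S phase genes, 0 passed in edgeR and 1 in DESeq2 (Lig1, adjusted p = 0.0301). A negative difference by label was found for 33 (71.7%, median -0.09), where 49.2% of all genes had one. Without overlap, 6 (13.0%) were lower and 1 higher, where 8.19% and 8.41% of all genes were. Within near pairs, 5 of 46 were lower in all 3 and 9 were higher, the second near the 20% of all genes. Between CORT 1 and VEH 3, 23 of 46 were lower (median -0.01), so the higher level of the S phase members in CORT 1 was not seen over this list. Between CORT 3 and CORT 2, only 8 of 46 were lower in CORT 3 (median 0.20), where 50.7% of all genes were. In that pair most of this list was thus higher in CORT 3, as most S phase members were. Between VEH 2 and VEH 1, 25 of 46 were lower in VEH 2 (median -0.02), where 49.6% of all genes were. Lig1, for the ligase that joins Okazaki fragments, had the smallest p of that list and stood at 18.5, 20.4 and 17.1 CPM against 36.9, 27.1 and 24.8 CPM (log2 difference -0.66 ± 0.16, adjusted p = 0.364). Lig1 was lower in all 3 pairs, as no S phase member was. E2f2, an E2F factor and the gene with the highest CPM of the list, stood at 75.5, 167 and 65.3 CPM against 124, 58.3 and 199 CPM. It was lower in every library with the higher Fkbp5 than in any with the lower, the reverse of the order of Rrm2.

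Of 25 genes of G1 and Rb control, which decide whether a cell enters the cycle, 0 passed in edgeR or DESeq2. A negative difference was found for 12 (48%, median 0.02), near the 49.2% of all genes. Rb1, for the retinoblastoma protein that restrains E2F, stood at 214, 234 and 228 CPM against 133, 139 and 193 CPM, without overlap (log2 difference 0.54 ± 0.14, adjusted p = 0.364). Cdkn1b, for the inhibitor p27, stood at 60.3, 58.4 and 60.6 CPM against 72.3, 71.2 and 70.1 CPM, also without overlap (-0.25 ± 0.06, adjusted p = 0.364). Cdkn1a, for the inhibitor p21 and the gene with the highest CPM of the list, stood at 2470, 2846 and 2745 CPM against 1935, 2004 and 2664 CPM. For Rb1 and Cdkn1a, VEH 3 lay nearest to the libraries labelled corticosterone.

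Marker genes of the cells in the dish also differed between libraries. Of 26 myotube markers tested, 18 were higher in the libraries labelled corticosterone (median log2 difference 0.17) and 8 (30.8%) lower, where 49.2% of all genes were lower. In edgeR 0 passed, and DESeq2 called 1, Actc1, which was higher (edgeR log2 difference 0.76, DESeq2 adjusted p = 0.0350). Myl4, with the smallest edgeR p of the list, went the other way and was lower without overlap. Its log2 difference was -0.42 ± 0.11 (edgeR adjusted p = 0.364, DESeq2 adjusted p = 0.0518). At an unadjusted edgeR p under 0.05, 1 myotube marker was lower and 3 higher, where 6.26% and 5.55% of all genes were. Without overlap, 1 was lower and 2 higher, where 8.19% and 8.41% of all genes were. Summed levels were 30265 to 37270 CPM against 25201 to 33714 CPM. In all 3 near pairs, 15 of 26 were higher in the library with the higher Fkbp5, where 20% of all genes were. No myotube marker was at 0 in every library, but Tnnc2, which was not tested, stood at only 0.0345 to 0.171 CPM. Acta1, skeletal actin, stood at 3542 to 4811 CPM. Of 16 myoblast markers tested, 11 were higher by label (median 0.08) and 5 (31.25%) lower, where 49.2% of all genes were lower. In edgeR 0 passed. DESeq2 called 1, Cxcr4, which was lower without overlap and in all 3 near pairs (edgeR log2 difference -0.66, DESeq2 adjusted p = 0.0211). Summed levels of the myoblast markers were 3779 to 4134 CPM against 3524 to 4194 CPM. The largest part of these sums was Itga7, with a mean of 1960 CPM. Within near pairs, 6 myoblast markers were lower in all 3 and 5 higher, where 20.5% and 20% of all genes were. Pax7, which marks muscle stem cells, stood at 49.2 to 66.0 CPM, and Pax3 at most 0.0786 CPM. Of 10 fibroblast markers tested, 6 were lower by label and 6 in all 3 near pairs, where 49.2% and 20.5% of all genes were. Neither edgeR nor DESeq2 called any of them. At an unadjusted edgeR p under 0.05, 0 were lower and 3 higher, Col1a2 and Col1a1 among them, where 6.26% and 5.55% of all genes were. Summed levels were 4568 to 8469 CPM against 4569 to 6208 CPM. Col3a1, Col1a2 and Col1a1 had means of 3370, 1818 and 729 CPM. Tcf21 and Thy1 were not tested, with 0 counts in every library for Tcf21 and at most 0.137 CPM for Thy1. Counts from mitochondrially encoded genes made up 2.53, 2.46 and 2.39% of the total in CORT 1, CORT 2 and CORT 3 and 1.69, 1.67 and 2.76% in VEH 1, VEH 2 and VEH 3, so the libraries with the highest S phase medians, VEH 1 and VEH 2, had the lowest share. The part of these markers in the differences among S phase and mitotic members was not tested.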

How the data were processed

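Raw counts of reads per gene for the 6 libraries were deposited by the authors in 1 table, made from poly(A) RNA with a NEBNext Ultra kit per the labels' protocols. The build mm10, DESeq2 1.24.0, HTSeq 0.6.1 and HISAT2 2.0.5 stand in the submitters' processing notes, with no role given. Annotation release and strand setting: not given in the sources used here. Counts were tested as deposited with edgeR 4.0.16 (R 4.3.3, glmQLFit and glmQLFTest, TMM, filterByExpr, two-sided, Benjamini-Hochberg over all genes tested), by label, with no block. Log2 CPM used a prior count of 2. Positions, exon lengths and overlaps came from GENCODE M21 (GRCm38, the assembly of mm10). Alternatives were DESeq2 1.42.0, limma-voom (limma 3.58.1), other scalings and filters, replicate number or near pair as a block, and libraries left out. The fits were tested on simulated data. Members and lists were chosen with earlier results of these data known. Log2 differences with tests were given for the 5 most abundant members and the 5 with the smallest p of each class, and other members were given as values. No column was left unmapped.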

Additional observations from a re-analysis of the deposited data

How the results depend on the processing

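By label, edgeR called 0 genes at an adjusted p of 0.05 (905 lower and 802 higher at an unadjusted p under 0.05), and so did limma-voom, the other scalings and the other count filters, whereas DESeq2 called 143, or 138 with filtering tuned at 0.05 (an alternative added after seeing the data). Leaving out 1 library gave 0 to 29 calls, with 29 without CORT 1 and 11 without VEH 3, and leaving out CORT 2 and VEH 2 gave 3. The S phase median turned to 0.297 and 3 negative members with near pair as a term, and 10 were negative without CORT 2 and VEH 2. The mitotic median was -0.455 with near pair as a term, and 25 mitotic members did not overlap without CORT 2 and VEH 2. With 1 library left out, 14 to 23 mitotic and 0 to 14 S phase members were lower without overlap, where 9.81 to 20.1% of all genes were. At an unadjusted p under 0.05, 0 to 6 S phase and 8 to 18 mitotic members were lower, where 2.57 to 10.3% of all genes were. Without CORT 1, 4 S phase members (8.74% of all genes) and 10 mitotic members were lower at that p. With near pair as a term, the sign turned for Pcna (0.0935), Mcm7 (0.203), Mcm6 (0.266), Prim1 (0.0617), Pola1 (0.0541), Mcm2 (0.327) and Cdc25b (-0.274). It also turned without CORT 2 and VEH 2 for Mcm7 (0.0991) and Cdc25b (-0.172), and with library totals for Cdc25b (-0.0280). With 1 library left out, Rrm1 ran from -0.0340 to 0.104, Rrm2 from -0.00276 to 0.323, Mcm7 from -0.178 to 0.00925, Cdc25b from -0.147 to 0.214 and Fkbp5 from -0.000896 to 1.57. The cause of these changes was not tested. Of 340 values for 20 genes, 317 kept sign and side of the threshold. Libraries with the same replicate number did not deviate together (r of -0.15, -0.27 and -0.32), and the replicate block gave 0 calls, medians of -0.23 (S phase) and -0.33 (mitotic), and 10 lower mitotic members at an unadjusted p under 0.05 (4.71% of all genes). A count of 3 equals 0.1002 to 0.1256 CPM, below every member in every library, a limit that covers counting error only.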
